A study of Mus musculus with 8 samples.

Results

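The genes of the cytosolic ribosome were followed in the livers of adult male mice whose mothers ate a high-fat diet or a standard chow while nursing. The ribosome makes every protein of the cell, and its large and small subunits each hold ribosomal RNA and a set of small basic proteins named Rpl and Rps. Their mRNAs are short, stable and among the most abundant of any cell, and most begin with a run of pyrimidines, the 5' TOP motif, through which mTORC1 adjusts their translation to nutrients and insulin. The liver secretes most plasma proteins and depends on a large pool of ribosomes. Genes were taken as members when a row of the array table named 1 gene alone and its symbol was Rpl or Rps with a number and at most 1 letter, or Rplp0, Rplp1, Rplp2 or Rpsa. S6 kinases and symbols marked as pseudogenes were left out, and a gene with several rows kept the row with the highest mean over the 8 arrays. This gave 64 genes from 104 rows, of 22180 genes and 41345 rows in all, with 40 genes of the large subunit and 24 of the small subunit. RefSeq lists 62 of them as protein coding and 2, Rpl6l and Rps4l, as pseudogenes. Of 81 protein-coding mouse genes with such symbols, 19 had no row that named them alone, and 12 of these 19 appeared in rows shared with other genes. Rpl10, the partner of Rpl10l, and Rps27a were among the 19.

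The study asked what exposure to maternal high-fat feeding during lactation alone leaves in the adult liver. HFD PN offspring were nursed by C57BL/6J dams switched to a 60% fat diet at birth, and Ctrl PN offspring by dams kept on standard chow. PN stands for postnatal, and by the study's methods all offspring were weaned onto normal diet, so that the groups differ in what the dams ate and not in the diet of the adult. Livers were taken from non-fasted males at 24 weeks of age, 4 per group, with 1 Affymetrix Mouse Gene 2.1 ST array each. All values are log2 levels, so that a difference of 1 is a doubling. No source used here says which litter a liver came from, and p-values measure only the spread between these 8 livers. In whole liver, fewer cells of a type and less RNA per cell cannot be told apart.

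Of the 64 ribosomal protein genes, 44 had a mean level of at least 3 (68.8%), against 26.1% of all genes. The median of all rows on the array was 1.55. The bright members reached 11.25 for Rpl41, and 32 members lay at 7 or more. The other 20 lay under 3, where most genes of the array lie, and included proteins that every ribosome holds, such as Rplp2, Rps14, Rps15 and Rpl11. A level depends on the probes of a row as well as on the RNA, so members are compared between livers and not with each other. Some dim members were also read by a bright row. Of the 20 dim members, 6 (Rpl26, Rpl27a, Rpl30, Rpl37a, Rplp2 and Rps16) were also named in a row shared with another gene or a pseudogene copy, and that row had a level of at least 7. For Rps16, a protein of the small subunit, the row naming it alone had a mean of 1.85 and the shared row 10.02. Many ribosomal protein genes have near-identical processed pseudogenes, and probes that match several copies cannot be assigned to 1 gene.

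Runs of C and T near the start were more common in these genes than over all genes. The search did not require a run to begin at the start, so it does not show a 5' TOP motif. RefSeq windows of 300 bases around the annotated start (GRCm38.p6) were found for 49 of the 64 members, in 58 windows. A run of at least 6 letters that are all C or T, on the strand of the gene and touching the 20 bases before or after the start, was present in 63.8% of the member windows and in 37.5% of 32851 windows of all genes. The letters CCGGAA, the core to which ETS factors bind, occurred on either strand in 48.3% of the member windows and 14.9% of all windows. Its reverse complement TTCCGG can overlap a pyrimidine run. TATAAA in the 50 bases before the start, read on the strand of the gene, was found in 0 member windows and in 2.63% of all windows. With 58 member windows, so low a share leaves few to be found, and the gap was not tested. These matches describe letters in a window and not a bound site. The lines below give 30 bases each, from 15 before the start to 15 from it onwards, with the longest C and T run around the start in capitals. They are shown for 2 of the brightest members (Rps6 and Rpl15), for members whose differences between the groups are described further on (Rps27, Rps10, Rps18 and Rpl35), and for Rpl4 and Rpl10l, which behaved unlike most.
Rps6 (chr4:86857353-86857382, minus strand): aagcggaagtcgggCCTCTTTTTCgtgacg
Rpl15 (chr14:18270972-18271001, minus strand): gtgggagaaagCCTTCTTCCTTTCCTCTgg
Rps27 (chr3:90213634-90213663, minus strand): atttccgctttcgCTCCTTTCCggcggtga
Rps10 (chr17:27635230-27635259, minus strand): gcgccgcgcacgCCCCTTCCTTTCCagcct
Rps18 (chr17:33955651-33955680, minus strand): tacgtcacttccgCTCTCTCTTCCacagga
Rpl35 (chr2:39005117-39005146, minus strand): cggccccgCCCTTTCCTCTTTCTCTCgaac
Rpl4 (chr9:64173372-64173401, plus strand): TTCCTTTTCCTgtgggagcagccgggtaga
Rpl10l (chr12:66284387-66284416, minus strand): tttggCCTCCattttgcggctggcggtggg
Rpl10l, a retrogene copy of Rpl10 that is known from mouse testis, had the shortest run of the 8 shown, 5 letters, and Rpl35 the longest, 18. The 8 do not span the range of all members. Rpl41, the brightest member, had a longest run of only 3 letters, as did Rps3, another bright member. The run of Rpl7a had 21. In the Rpl4 window the run lies upstream of the start and extends past the printed edge, to 14 letters in all. The share of windows with a run was 67.5% for members at a level of 3 or more and 55.6% for dimmer ones.

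The ribosomal protein genes were jointly high in 2 single livers, 1 of each group. HFD PN replicate 1 was the highest HFD PN liver for 51 of the 64 genes (79.7%, against 31.6% of all genes). Ctrl PN replicate 3 was the highest Ctrl PN liver for 48 of the 64 (75.0%, against 30.1%). Both held for 41 members (64.1%, against 14.0%). The shares over all genes are not matched for level. At a level of 3 or more, both held for 35 of 44 members and 586 of 5794 genes, and at 7 or more for 207 of 748 genes. Some other families shared this in part, as given below. Among the 44 members at a level of 3 or more, the median excess of HFD PN replicate 1 over the mean of the other 3 HFD PN livers was 0.54, and that of Ctrl PN replicate 3 over its group was 0.42. All genes at a level of 3 or more moved the other way, by medians of -0.65 and -0.32. The opposite movement of members and other genes held after median centring (0.45 and 0.35 for members, -0.74 and -0.39 for all genes) and after quantile normalization (0.62 and 0.45, against -0.13 and -0.07). These are the same 2 arrays that stood apart over the whole table, and the part of the array in the ribosomal protein values was not tested. The 20 dim members showed smaller excesses, of 0.19 and 0.13.

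**Figure D1:**
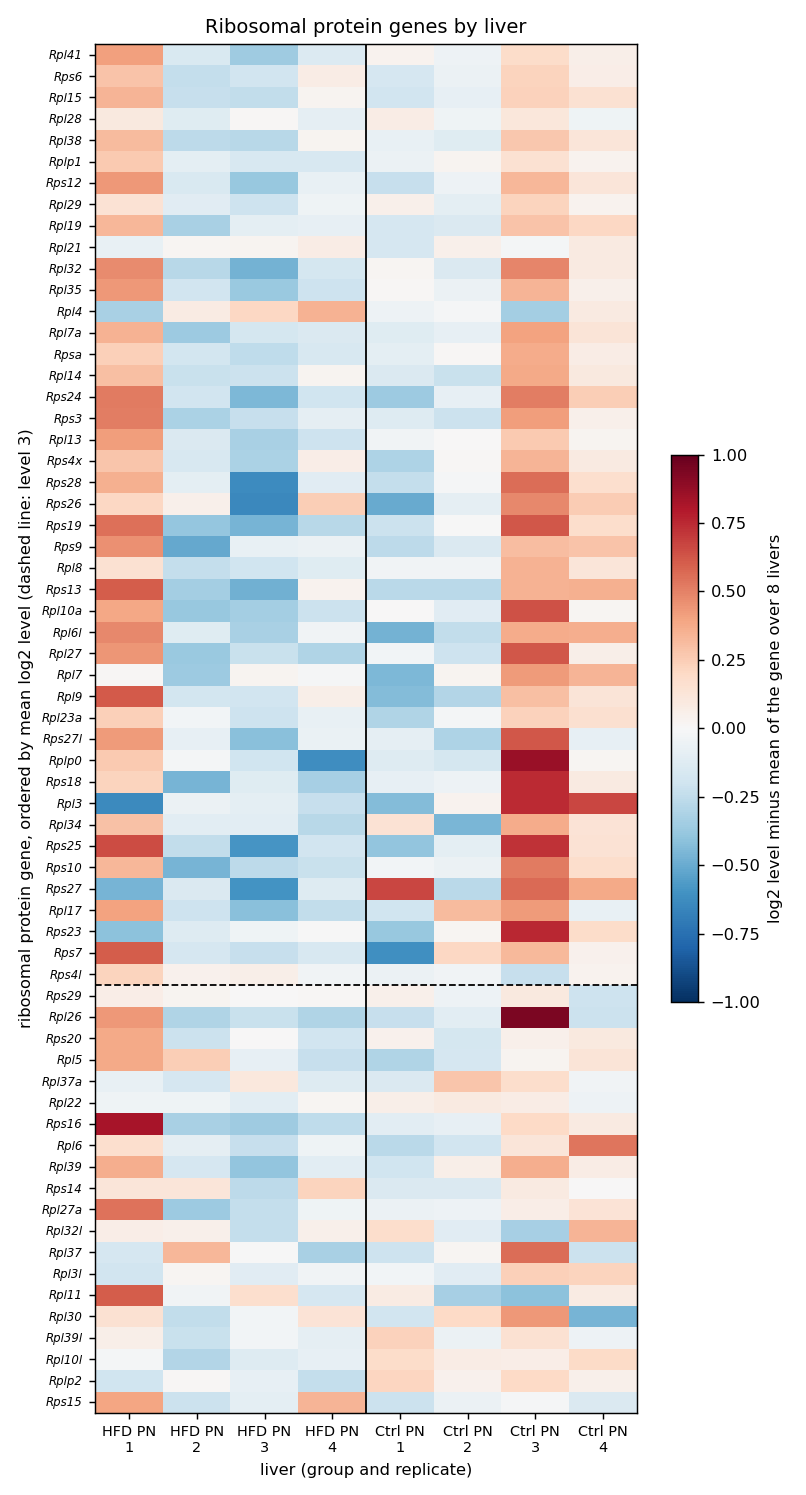
Each row of the heat map is 1 of the 64 ribosomal protein genes, ordered by mean log2 level, and each column 1 liver; colour gives the log2 level minus the gene's mean over the 8 livers. The columns of HFD PN replicate 1 and Ctrl PN replicate 3 are mostly red above the dashed line at level 3, where 35 of 44 genes have both livers highest of their groups.

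The excess reached most of the ribosome rather than a few proteins. Rps6, the small-subunit protein that S6 kinase phosphorylates downstream of insulin, read 11.37, 10.85, 10.89 and 11.16 in HFD PN replicates 1 to 4 and 10.92, 11.03, 11.31 and 11.15 in Ctrl PN replicates 1 to 4. Rpl41, the smallest protein of the large subunit, read 11.66, 11.10, 10.90 and 11.12 in HFD PN and 11.29, 11.20, 11.44 and 11.31 in Ctrl PN. Rpl15, a core protein of the large subunit, read 11.03, 10.46, 10.45 and 10.72 in HFD PN and 10.51, 10.61, 10.92 and 10.85 in Ctrl PN. In all 3 genes HFD PN replicate 1 was the highest of the 8 livers, Ctrl PN replicate 3 was the highest Ctrl PN liver, and the groups overlapped. Rps25, a small-subunit protein needed by some viral internal ribosome entry sites, had the largest excess among the brighter members in HFD PN replicate 1, 0.996, and one of 0.84 in Ctrl PN replicate 3. Its levels were 5.85, 4.96, 4.61 and 5.01 in HFD PN and 4.80, 5.10, 5.92 and 5.35 in Ctrl PN. The stalk protein Rplp0 had the largest excess among the brighter members in Ctrl PN replicate 3, 0.96. Among members at a level of 3 or more, those of the small subunit had medians of 0.63 and 0.49 in the 2 livers and those of the large subunit 0.49 and 0.34, and this gap between the subunits was not tested.

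Of the 44 brighter members, 38 were above the mean of the other livers of the group in both of these livers, and 6 were not. Rps27, Rpl3 and Rps23 were low in HFD PN replicate 1 but high in Ctrl PN replicate 3, and the pseudogene Rps4l did the reverse. Only Rpl4 and Rpl21 were below the mean of the others in both. Rpl4, which lines the tunnel through which the new protein leaves, read 9.44, 9.85, 9.97 and 10.11 in HFD PN and 9.71, 9.75, 9.42 and 9.85 in Ctrl PN, so that HFD PN replicate 1 and Ctrl PN replicate 3 were the lowest of their groups. The excess of Rpl21 was -0.11 and -0.01, with all 8 livers between 10.01 and 10.28.

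Genes that work beside the ribosome did not all share this pattern. Of 25 other translation genes, mostly known as TOP mRNAs, 21 were measured, and their median excess was 0.37 in HFD PN replicate 1 and 0.32 in Ctrl PN replicate 3. Within that list the values differed. Fau, whose product is cut to a small-subunit protein, read 8.60, 7.80, 7.99 and 8.19 in HFD PN and 7.92, 8.01, 8.49 and 8.48 in Ctrl PN. Eef2, the factor that moves the ribosome along the mRNA, went the other way, with 8.92, 9.10, 9.73 and 9.60 in HFD PN and 9.47, 9.60, 9.12 and 9.28 in Ctrl PN. Subunits of oxidative phosphorylation (74 genes) had excesses of 0.20 and 0.29 and proteins of the mitochondrial ribosome (71 genes) of 0.15 and 0.10. Both livers were highest of their groups for 39 of these 74 and 27 of these 71 genes, and for 10 of the 21 other translation genes. The same held for 2 of 41 ribosome assembly factors, 2 of 15 polymerase I genes and 0 of 21 mTORC1 genes. Ribosome assembly factors (41 of 44 measured) were low in both livers, at -0.55 and -0.25, and so were RNA polymerase I and its regulators (15 of 18, -0.18 and -0.10) and the mTORC1 pathway (21 of 24, -0.66 and -0.42). The medians were -0.65 and -0.32 over all genes at a level of 3 or more, and -0.05 and -0.01 over all genes. Low values in these 2 livers are therefore not particular to these lists. Mtor itself read 2.50, 3.98, 3.94 and 4.26 in HFD PN and 3.65, 3.76, 2.85 and 3.41 in Ctrl PN, the lowest value of each group being in the liver where ribosomal protein genes were highest. Hepatocyte markers were present in every liver, with a mean over 10 of 10 genes between 9.63 and 10.29, and their excess was -0.31 and -0.44. The lists for the other liver cell types (endothelial, macrophage, and stellate cells with fibroblasts) had excesses between -0.36 and -0.20. Lymphocyte markers (6 of 7 measured) had 0.27 and -0.06 and cholangiocyte markers (4 of 5) -0.26 and 0.06, and 0 of 4 erythroid markers were measured by a row of their own.

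The span of the gene moved with the same 2 livers. Ribosomal protein genes are short, with a median RefSeq span of 3.15 kb for the 44 brighter members. Among other genes at a level of 7 or more, the 153 with a span of up to 5 kb had a median excess of 0.13 in HFD PN replicate 1 and 0.13 in Ctrl PN replicate 3. The 275 genes with a span over 5 and up to 20 kb had -0.31 and -0.17, and the 286 genes over 20 kb -0.40 and -0.33. The 32 ribosomal protein genes at a level of 7 or more had a median excess of 0.54 and 0.38, larger than that of the other short genes of this level. The span covers introns and is not the length of the mRNA, and its part in the result was not tested.

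**Figure D2:**
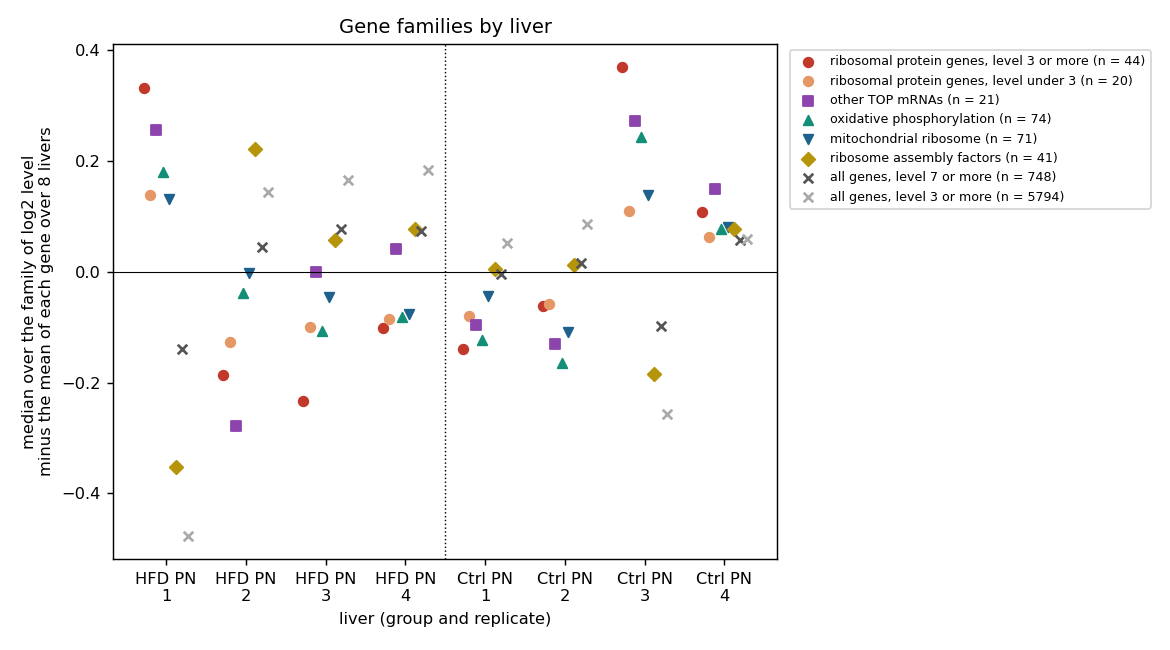
The median over each gene family of the log2 level minus the gene's mean over the 8 livers is plotted for each liver, with 1 symbol per family. Ribosomal protein genes at level 3 or more lie at 0.33 in HFD PN replicate 1 and 0.37 in Ctrl PN replicate 3, while ribosome assembly factors and all genes at level 3 or more lie below 0 in both.

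Between the diets, 3 of 64 ribosomal protein genes were lower in HFD PN livers at an unadjusted p under 0.05, and no gene passed after adjustment. The difference, HFD PN minus Ctrl PN, was negative for 53 of 64 members (82.8%, against 55.9% of all genes), and for 50 after quantile normalization and 51 after median centring. Most genes of the array are dim, so the share over all genes is not matched for level. At a level of 3 or more, 39 of 44 members and 2663 of 5794 genes were negative. The median difference was -0.10 over the 64 members, -0.10 over the 44 brighter ones and -0.07 over the 20 dim ones. Over all genes it was -0.02 (0.01 after median centring), and over all genes at a level of 7 or more it was 0.02 (-0.0032 after quantile normalization). The large subunit had a median of -0.10 and the small subunit of -0.08. The median of the 64 genes lay within the spread between livers, since each liver's median deviation over the members had a pooled SD of 0.221 within groups, and it was -0.02 without Ctrl PN replicate 3. The standard error of single genes ran from 0.083 to 0.303. By limma across all 22180 genes, 3 members were lower at an unadjusted p under 0.05 (4.69%, against 2.36% of all genes) and 0 were higher (against 1.13% of all genes). At an unadjusted p under 0.01 there were 0 members (against 0.555% of all genes). The lowest adjusted p, by Benjamini-Hochberg over all genes, was 0.99988 among the members and also over all genes, of which 774 had an unadjusted p under 0.05. The 3 genes were Rps27, Rpl10l and Rplp2, and 2 of them were dim.

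The families beside the ribosome gave few calls. Of 71 mitochondrial ribosomal proteins 1 was lower at an unadjusted p under 0.05, and 0 of 74 oxidative phosphorylation subunits, 0 of 21 other translation genes, 0 of 41 assembly factors, 0 of 15 polymerase I genes and 0 of 21 mTORC1 genes passed in either direction. Their median differences were -0.03 for mitochondrial ribosomal proteins (0.0032 after median centring), -0.05 for oxidative phosphorylation, -0.03 for other translation genes (0.0044 after centring), -0.0011 for assembly factors (0.03 after centring), -0.05 for polymerase I and 0.06 for mTORC1. Among the cell type lists, 2 of 7 stellate cell and fibroblast markers were lower at this threshold, against 2.36% of all genes. They were Reln (-0.83) and Col3a1 (-0.40, at a dim mean level of 2.26). Of the 7, 5 had negative differences, and Lrat (0.11) and Dcn (0.0049) did not. The mean level of this list ran from 3.46 to 3.91 in HFD PN livers and from 3.92 to 4.18 in Ctrl PN livers. The endothelial list ran from 4.46 to 4.94 in HFD PN and from 4.68 to 5.09 in Ctrl PN, the macrophage list from 4.07 to 4.76 and from 4.44 to 4.63, and the hepatocyte list from 9.75 to 10.29 and from 9.63 to 10.24, with 0 calls in each. The lymphocyte list lay between 1.91 and 2.104 and the cholangiocyte list between 1.86 and 2.20 in all livers. The part of cell type makeup in the differences of the ribosomal protein genes was not tested.

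**Figure D3:**
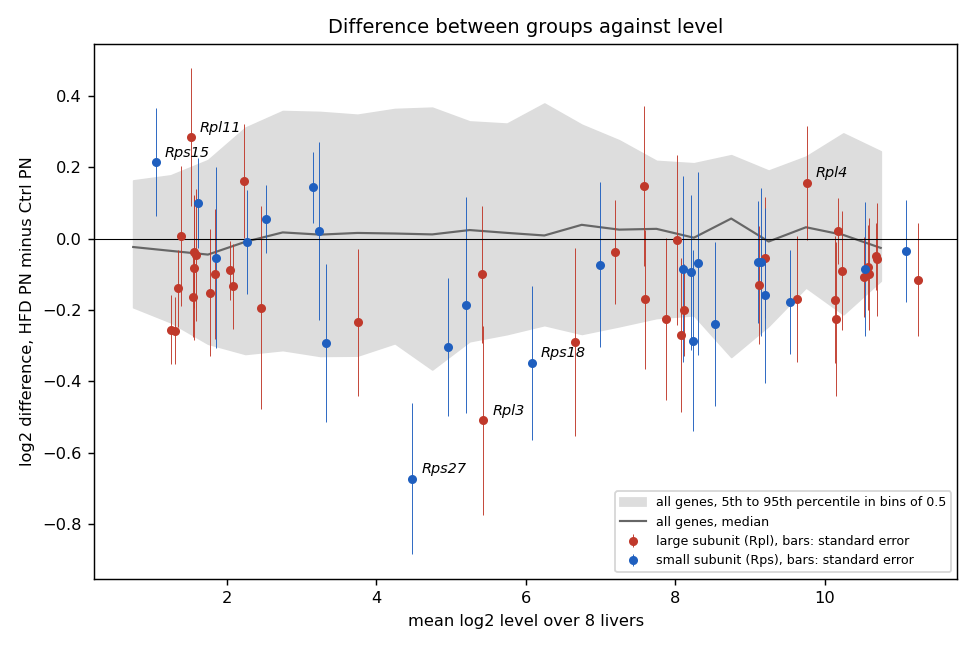
The log2 difference, HFD PN minus Ctrl PN, of each ribosomal protein gene is plotted against its mean log2 level, with standard error bars, over the 5th to 95th percentile of all genes in bins of level that hold at least 20 genes (grey). Of the 64 points 53 lie below 0, with Rps27 at -0.67 and Rpl3 at -0.51 the lowest and Rpl11 at 0.29 the highest.

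Rps27, a zinc finger protein of the small subunit, had the largest difference. Its row read 4.01, 4.33, 3.88 and 4.35 in HFD PN and 5.15, 4.21, 5.05 and 4.86 in Ctrl PN, a difference of -0.67 ± 0.21 (standard error, limma unadjusted p = 0.0115, exact permutation p = 0.0857). The groups overlapped, since Ctrl PN replicate 2 lay below 2 HFD PN livers. A second row, which names Rps27 together with its retrogene copy Rps27rt, was much brighter and had a smaller difference, with 10.05, 9.89, 9.73 and 9.85 in HFD PN and 9.66, 9.89, 10.29 and 10.11 in Ctrl PN, a difference of -0.11 (exact permutation p = 0.514). Rps10, a gene mutated in some people with Diamond-Blackfan anaemia, read 5.30, 4.50, 4.71 and 4.75 in HFD PN and 4.94, 4.90, 5.49 and 5.14 in Ctrl PN. HFD PN replicates 2 to 4 lay below every Ctrl PN liver and replicate 1 above all but 1 of them. The difference was -0.30 ± 0.19 and did not pass (limma unadjusted p = 0.153). Rps18, a protein of the head of the small subunit, behaved alike, with 6.31, 5.62, 5.96 and 5.75 in HFD PN and 5.997, 6.03, 6.82 and 6.17 in Ctrl PN, a difference of -0.35 ± 0.22 (limma unadjusted p = 0.143). At the other end, Rps15, which is needed for export of the new small subunit from the nucleus, was dim, at 1.45, 0.84, 0.96 and 1.39 in HFD PN and 0.84, 0.99, 1.03 and 0.91 in Ctrl PN, a difference of 0.21 ± 0.15 (limma unadjusted p = 0.192).

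Of the large subunit, Rpl3, a protein near the catalytic centre, had the lowest difference. Its levels were 4.80, 5.38, 5.34 and 5.21 in HFD PN and 5.003, 5.47, 6.18 and 6.10 in Ctrl PN, a difference of -0.51 ± 0.26 (limma unadjusted p = 0.0873), with Ctrl PN replicates 3 and 4 above all other livers and Ctrl PN replicate 1 among the HFD PN values. Both other rows of Rpl3 were dim and differed by 0.18 and -0.06. Rpl4 had the highest difference among the brighter members, 0.16 ± 0.16 (limma unadjusted p = 0.353). Rpl11 and Rpl5 bind 5S ribosomal RNA and, when ribosome assembly fails, hold back Mdm2 and so stabilise p53. Rpl11 read 2.13, 1.48, 1.69 and 1.35 in HFD PN and 1.60, 1.19, 1.11 and 1.60 in Ctrl PN, and its difference of 0.29 ± 0.19 was the highest of all members but did not pass (limma unadjusted p = 0.173). Rpl5 read 2.61, 2.48, 2.15 and 1.999 in HFD PN and 1.93, 2.06, 2.25 and 2.36 in Ctrl PN, a difference of 0.16 ± 0.16. Both genes were dim and their groups overlapped.

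The brightest members had small differences between the diets. For Rpl41, Rps6 and Rpl15, whose levels are given above, the differences were -0.11 ± 0.16, -0.04 ± 0.14 and -0.06 ± 0.16. Rpl28, another large-subunit protein of this level, read 10.79, 10.57, 10.70 and 10.60 in HFD PN and 10.76, 10.64, 10.81 and 10.64 in Ctrl PN, a difference of -0.05 ± 0.09. Its 8 livers lay closer together than those of most members, between 10.57 and 10.81. Rpsa, which occurs on the small subunit and is also known as a laminin receptor, read 9.78, 9.35, 9.28 and 9.38 in HFD PN and 9.44, 9.55, 9.91 and 9.61 in Ctrl PN, a difference of -0.18 ± 0.15. For Rps4x, the X-linked form of a small-subunit protein, the levels were 9.39, 8.94, 8.79 and 9.18 in HFD PN and 8.80, 9.12, 9.45 and 9.20 in Ctrl PN, and the difference was -0.07 ± 0.17. None of these 6 genes had an unadjusted p under 0.05, and in each the groups overlapped.

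The stalk of the large subunit, which draws elongation factors to the ribosome, is built from Rplp0, Rplp1 and Rplp2. Rplp1 read 10.84, 10.48, 10.42 and 10.42 in HFD PN and 10.52, 10.61, 10.73 and 10.61 in Ctrl PN, a difference of -0.08 ± 0.12. Rplp0 read 6.93, 6.64, 6.46 and 6.04 in HFD PN and 6.53, 6.49, 7.53 and 6.68 in Ctrl PN, a difference of -0.29 ± 0.26, with the largest values in HFD PN replicate 1 and Ctrl PN replicate 3. Neither passed. Rplp2 had a dim row, at 1.06, 1.27, 1.17 and 1.02 in HFD PN and 1.48, 1.30, 1.46 and 1.31 in Ctrl PN, a difference of -0.26 ± 0.10 (limma unadjusted p = 0.0274). Its groups did not overlap, for which the exact permutation p is 0.0286, the smallest that 4 livers against 4 can give. A row shared with Snora52, a small RNA whose gene lies within Rplp2, was far brighter and overlapped between the groups, with 8.96, 7.74, 7.35 and 7.64 in HFD PN and 7.87, 7.55, 9.12 and 7.96 in Ctrl PN, a difference of -0.20 (exact permutation p = 0.543).

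Paralogs known from other tissues or from stress were mostly dim. Rpl10l read 1.29, 1.01, 1.18 and 1.22 in HFD PN and 1.49, 1.38, 1.37 and 1.50 in Ctrl PN, without overlap, a difference of -0.26 ± 0.09 (limma unadjusted p = 0.0231, exact permutation p = 0.0286). Rpl10l and Rplp2 were the only members whose groups did not overlap, 2 of 64, against 2.82% of all genes. Rpl3l, the muscle form of Rpl3, read 1.35, 1.56, 1.43 and 1.51 in HFD PN and 1.52, 1.43, 1.79 and 1.77 in Ctrl PN, a difference of -0.16 ± 0.11. Rpl39l, a second copy known from mouse testis, read 1.42, 1.13, 1.33 and 1.27 in HFD PN and 1.59, 1.30, 1.51 and 1.30 in Ctrl PN, a difference of -0.14 ± 0.11, and its partner Rpl39, a protein of the exit tunnel, 2.14, 1.60, 1.38 and 1.67 and 1.58, 1.83, 2.13 and 1.85, a difference of -0.15 ± 0.18. In both genes the groups overlapped. Rps27l, which p53 induces, was brighter, at 7.42, 6.92, 6.58 and 6.93 in HFD PN and 6.91, 6.69, 7.62 and 6.91 in Ctrl PN, a difference of -0.07 ± 0.23, with HFD PN replicate 1 and Ctrl PN replicate 3 highest. Rps4l read 3.38, 3.20, 3.21 and 3.12 in HFD PN and 3.10, 3.12, 2.92 and 3.19 in Ctrl PN, a difference of 0.14 ± 0.10.

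**Figure D4:**
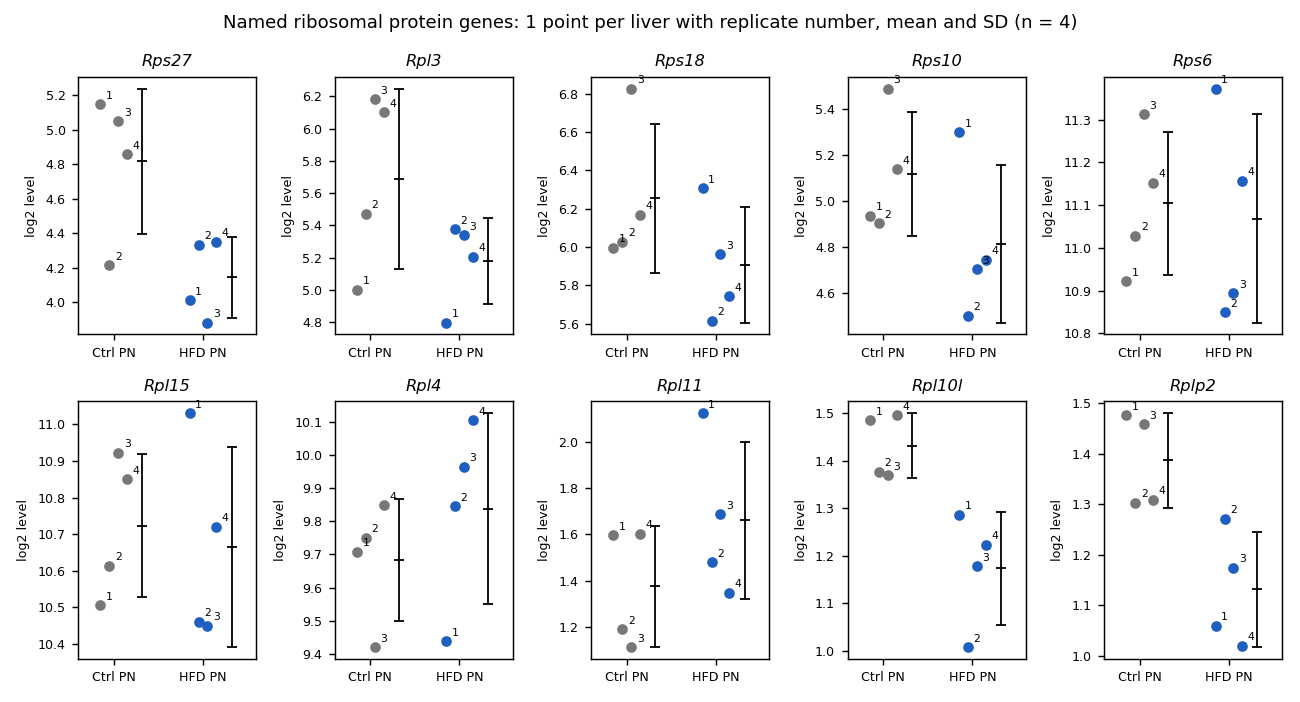
Log2 levels of 10 named ribosomal protein genes are plotted by group, 1 point per liver with its replicate number, and the bar gives the mean and SD of the 4 livers of a group; the vertical axes differ and do not start at 0. Replicate 1 of HFD PN and replicate 3 of Ctrl PN top their groups for Rps18, Rps10, Rps6 and Rpl15, are lowest of their groups for Rpl4, and only Rpl10l and Rplp2 show groups that do not overlap.

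The comparison was also made with HFD PN replicate 1 and Ctrl PN replicate 3, the arrays that stood apart over the whole table, both left out, 3 livers against 3. Most members were highest in these livers, so that leaving them out narrows the members' own spread, and the counts that follow are a description of the other 6 livers. The median difference of the 64 members was then -0.14, and 53 were negative. By limma, 10 members were lower at an unadjusted p under 0.05 (15.6%, against 2.76% of all genes) and 0 were higher (against 5.62% of all genes), with a lowest adjusted p of 0.475 among the members and 0 of all genes passing. The 10 were Rpl10l, Rps10, Rps19, Rpl10a, Rps16, Rpl35, Rpl32, Rps18, Rps27 and Rpl13, of which 8 were brighter members. Rps19, the small-subunit protein most often mutated in human Diamond-Blackfan anaemia, read 8.79, 7.85, 7.77 and 7.96 in HFD PN and 8.02, 8.23, 8.86 and 8.41 in Ctrl PN. Its difference was -0.29 (limma unadjusted p = 0.291) over all livers. Without both it was -0.36 ± 0.12, with an adjusted p of 0.489 (limma unadjusted p = 0.0180). Rpl35, which sits at the mouth of the exit tunnel, read 10.57, 9.95, 9.77 and 9.94 in HFD PN and 10.15, 10.08, 10.48 and 10.20 in Ctrl PN, and its difference went from -0.17 to -0.26 ± 0.10. The adjusted p was 0.560 by limma. In both genes HFD PN replicates 2 to 4 lay below every Ctrl PN liver while replicate 1 lay above at least 3 of the 4. The size of the shift depended on which liver was left out. Without HFD PN replicate 1 alone the median difference of the 64 members was -0.21.

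Several genes were read by more than 1 row. Of the 64 members, 24 had several rows, with 64 rows in all, of which 57 had distinct values. Rps12, of the small subunit, had 6 identical rows among its 8, and rows of this kind hold the same measurement. In 15 of the 23 genes with several distinct rows, all rows had differences of 1 sign, and in 15 genes the chosen row was at least 3 while another lay under 3. Rpl41 had 5 distinct rows, whose differences ran from -0.35 to -0.05, all negative. The 4 brightest of them, with means between 10.19 and 11.25, were all highest in HFD PN replicate 1 and in Ctrl PN replicate 3 within their groups. For Rps24 the 3 rows, all above 3, differed by -0.16, -0.10 and 0.18, so that 1 gene gave both signs.

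**Figure D5:**
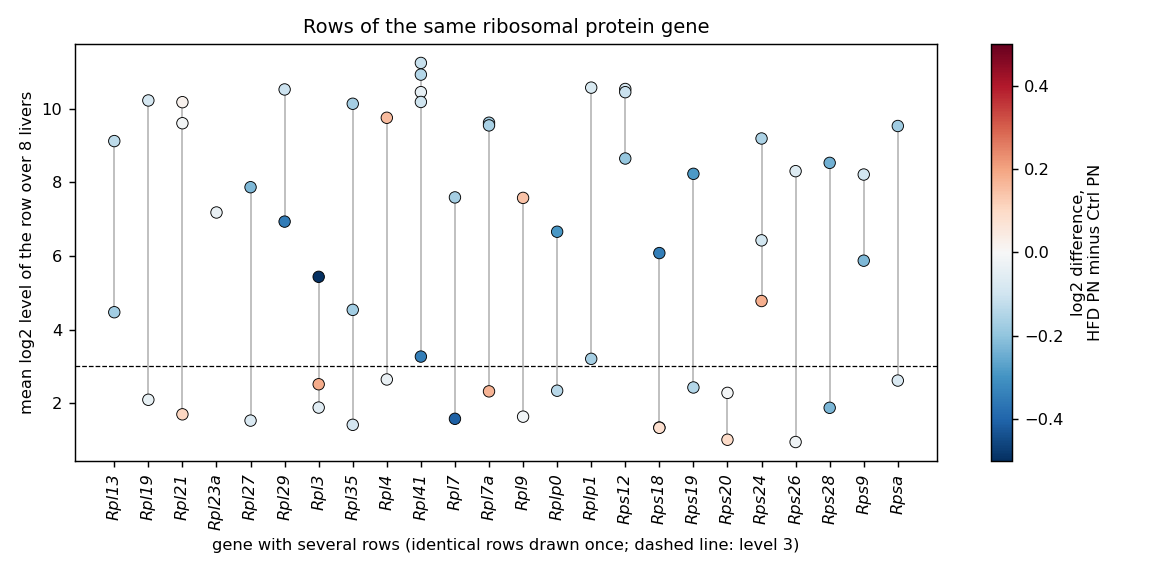
Each point is 1 distinct row of a ribosomal protein gene with several rows, placed by its mean log2 level over the 8 livers and coloured by the log2 difference, HFD PN minus Ctrl PN. Vertical lines join rows of 1 gene and cross the dashed line at level 3 in 15 genes, and colours within a gene agree in sign for 15 of the 23 genes with several distinct rows.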

How the data were processed

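Liver RNA of 4 HFD PN and 4 Ctrl PN males was measured on 1 array each, and groups were taken from the diet label. The deposited values are log2 levels, which the authors computed by RMA with the oligo package in R 3.4.3. RMA corrects background, brings the probe signals of all arrays to 1 distribution and summarises each transcript cluster, so an array of another composition is pulled towards the rest. The genome build and annotation release of the array rows were not given in the sources used here. Rows were named by the platform annotation, with symbols updated by identifier through RefSeq (23328 of 23521 rows naming 1 gene matched). A further 1820 rows named several genes and 16004 were not named here.

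HFD PN was compared with Ctrl PN over all 22180 genes by limma 3.58.1 (lmFit, eBayes, no covariates, no filter) in R 4.3.3, with an unadjusted p under 0.05, the study's exploratory 0.01, and Benjamini-Hochberg adjustment. Single values were also compared by two-sided exact permutation in Python 3.11.15. Values in every liver were given for members at an unadjusted p under 0.05, the 4 highest and lowest differences and levels, the 3 largest SDs, the stalk proteins, Rpsa, Rps6, Rps4x, and 5 paralogs with their measured partners. Others were named after their values were seen. The members and lists were chosen with earlier results of these data known. Alternatives were median centring, quantile normalization, array weights, a minimum level, other rows of a gene, the replicate number as a block and livers left out. The limma procedure was tested on simulated data. Arrays have no read depth, and their number limits the precision.

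On the arrays as a whole, HFD PN replicate 1 and Ctrl PN replicate 3 stood apart. Over 4452 genes at a level of 3 to 6 their median deviations from the mean over all livers were -0.55 and -0.28, and their array weights were 0.206 and 0.500, against 1.16 to 2.04 for the others. Both were kept in the main comparison.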

Additional observations from a re-analysis of the deposited data

Results flagged for a closer look

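Of 128 groups of 4 livers (64 ribosomal protein genes in each diet group), 7 held a highest or lowest liver far from the other 3 by Dixon's criterion, or 5.47%. Chance reaches this in about 1 group in 20, and 8.52% of the 44360 groups of all genes did, a higher share than among the members. HFD PN replicate 1 was the far liver in 4 of the 7, and in 51.0% of the cases over all genes. Rplp1, a stalk protein, read 10.84 there and 10.42 to 10.48 in the other HFD PN livers. Rps7 read 3.84 there against 2.998 to 3.07, Rps16 2.68 against 1.499 to 1.599, and Rpl26 2.90 against 2.17 to 2.24. Rpl26 was also set off in Ctrl PN replicate 3, at 3.403, where the rest of the group ran from 2.24 to 2.36. The remaining 2 were low values, of Rpl7 in HFD PN replicate 2 (7.23, against 7.58 to 7.62) and of Rpl32l in HFD PN replicate 3 (1.33, against 1.62 to 1.63). The rows of Rps16, Rpl26 and Rpl32l lie under a mean level of 3.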

How the results depend on the processing

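The median difference of the ribosomal protein genes stayed negative under every alternative run, between -0.21 and -0.02, both ends coming from leaving out 1 liver (HFD PN replicate 1 for the lower end, Ctrl PN replicate 3 for the upper). The count of members lower at an unadjusted p under 0.05, 3 over all 8 livers, was 9 with array weights (14.1%, against 3.92% of all genes), 1 among members with a mean level of at least 3 (2.27%, against 0.449%) and 10 without HFD PN replicate 1 and Ctrl PN replicate 3 together (15.6%, against 2.76%). With the row of the lowest mean level in place of the highest, a setting chosen after seeing the data, it was 5 (7.81%, against 2.41%). Leaving out single livers gave 2 to 15 lower, the 15 without HFD PN replicate 1 (23.4%, against 2.86% of all genes), and 0 to 1 higher, the 1 being Rpl4 without the same liver (1.56%, against 6.53%). The other single livers gave 2 to 4 lower, against 1.63% to 2.65% of all genes. HFD PN replicate 1 was the highest HFD PN liver for 51 of the 64 members. Leaving it out, or giving it the low array weight of 0.206, lowers the HFD PN mean of these members and narrows their spread. The counts of 9, 10 and 15 are therefore a description and no test of the diet. Rplp2 and Rpl10l each lost an unadjusted p under 0.05 when any of several single livers was left out, and Rps27 kept it. No label used here says whether livers with the same replicate number were paired. Their deviations correlated at -0.30, 0.29, -0.41 and 0.16 over all genes. These values cannot settle it, since HFD PN replicate 1 and Ctrl PN replicate 3 stood apart from most other livers. With the replicate block 3 members were lower and 0 higher, with Rpl3 gained and Rplp2 lost. Of 424 values of named genes under the alternatives, 393 kept their direction and side of the threshold, 11 crossed to an unadjusted p under 0.05, 9 lost it and 11 changed sign without passing it. All 11 changes of sign came from leaving out 1 liver, over which Rpl15 ran from -0.18 to 0.0142, Rps25 from -0.44 to 0.0231, Rps27l from -0.23 to 0.12, Rps4x from -0.18 to 0.0358 and Rps6 from -0.14 to 0.0374. The 20 members under a level of 3 sit where signal is hardest to tell from background, and the array holds no depth by which to judge them.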

Other observations

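Rows that name a ribosomal protein gene together with other genes were not used for the 64 members, although some of them name a member as well. The 57 rows that name a ribosomal protein gene together with another gene or a pseudogene copy include 33 with a mean level of at least 3. Of these 33, HFD PN replicate 1 was the highest HFD PN liver in 31 and Ctrl PN replicate 3 the highest Ctrl PN liver in 29, both in 28. Their median excess over the other livers of the group was 0.48 and 0.38. The difference, HFD PN minus Ctrl PN, was negative in 28 of the 33, with a median of -0.11 and a range from -0.59 to 0.47. They include the row of Rpl34 with its pseudogene Rpl34-ps1, at 11.83, 11.37, 11.28 and 11.49 in HFD PN and 11.60, 11.44, 11.81 and 11.62 in Ctrl PN, where the row of Rpl34 alone had a mean of 5.41 against 11.56 for the shared row.

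Of the 64 members, 20 were also named in a shared row, and in 9 of them the brightest shared row was brighter than the row naming the gene alone. For Rpl30, a large-subunit protein, the own row had a mean of 1.39 and a difference of 0.01, and the brightest shared row a mean of 9.25 and a difference of -0.01. For Rpl26 the own row had 2.46 and -0.19 and the shared row 10.39 and -0.17. Within the deviations of all genes, HFD PN replicate 1 correlated most closely with Ctrl PN replicate 3 of the other group (r = 0.59 across genes, which are not independent replicates).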
